A study of Mus musculus with 6 samples.

Results

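The genes described are 10 members of the BCL2 family, led by Bcl2l11, which encodes the death-promoting protein Bim. They are the rows of a mouse RNA sequencing count table whose gene name is Bcl2l11, Bcl2, Bcl2l1, Bcl2l2, Mcl1, Bak1, Bid, Bad, Bik or Bmf, 10 of the 53465 genes in the table. Bax, Bbc3 and Pmaip1 were left out of that choice and are given separately. Bcl2l11 was singled out because it was far lower in 1 group of this same comparison, so its difference is given as a description without a test.

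The BCL2 family decides whether mitochondria release cytochrome c, the step that sets off the intrinsic route of apoptosis. Pro-survival members such as BCL2, BCL-XL and MCL1 hold the effectors BAX and BAK in check, and the BH3-only members, Bim among them, bind the pro-survival proteins or activate the effectors directly. In liver, MCL1 and BCL-XL are known to keep hepatocytes alive, and loss of Bim is known to speed lymphoma driven by Myc in mice.

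RNA was sequenced from 6 cell lines grown from liver tumours of different female C57BL/6 mice, 3 lines called Myc_Utx (2A, 2B and 2D) and 3 called Myc_p53 (1, 2 and 3). All tumours were started by hydrodynamic tail vein injection of a Myc transposon, driven by the EF1a promoter and inserted by the Sleeping Beauty transposase, so both groups carry Myc. It was injected with a plasmid for Cas9 and a guide, against Kdm6a (also called Utx, a histone demethylase) in Myc_Utx and against the p53 gene in Myc_p53. The Myc_p53 lines were the reference, and since the groups differ at both targeted genes, an effect of losing Kdm6a and an effect of losing p53 cannot be told apart. Primary cultures were passaged on collagen-coated plates until no other cell type was visible, and whether a line is 1 clone is not given in the sources used here. In these bulk cultures fewer cells of a type and less RNA per cell cannot be told apart.

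Each line counted as 1 replicate. Total counts were 4656103 to 5473042 in Myc_Utx lines and 5370608 to 6937497 in Myc_p53 lines, and 11510 genes had enough counts to be tested, among them 9 of the 10 members. Kdm6a itself was at 39.7, 45.7 and 49.0 CPM (read counts relative to library size, scaled between lines by the TMM method) in Myc_Utx lines and at 69.5, 64.5 and 42.5 in Myc_p53 lines, so the groups overlapped. Its log2 fold change was -0.39 (SE 0.22, adjusted p = 0.243 by edgeR's quasi-likelihood test with Benjamini-Hochberg adjustment), and a count over the whole gene does not show whether the reading frame was disrupted. The labels name Utx for these lines, but the study's RNA sequencing methods name lines edited at Mll3 (Kmt2c, a histone methyltransferase) in their place, so Kmt2c was looked at too, although it lies outside the rule for named genes. It was at 69.6, 77.0 and 86.6 CPM in Myc_Utx lines and at 148, 116 and 121 CPM in Myc_p53 lines, without overlap (log2 fold change -0.73, SE 0.15, adjusted p = 0.0289 by edgeR). The call of Kmt2c was lost with length offsets (log2 fold change -0.36, adjusted p = 0.20) and without any 1 line other than Myc_p53 2 (adjusted p = 0.051 to 0.0992). The name under which the counts were deposited also holds MLL3. Messenger RNA levels do not settle which gene was edited, and the labels were followed. The study's results and its volcano plot legend also name lines edited at Kdm6a for the RNA sequencing. In cell lines from such tumours the study reports insertions or deletions at the Kdm6a target site and loss of the protein. Throughout, a log2 fold change below 0 means a lower level in Myc_Utx lines, and adjusted p-values come from that same test over all genes tested.

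Bcl2l11 (ENSMUSG00000027381) lies on the forward strand of chr2:128126038-128162547 in GRCm38. The 250 bases before its start, chr2:128125788-128126037, are shown because the gene is known to be driven by FOXO factors from its GC-rich promoter. Capitals mark 1 match to the FOXO core motif, GTAAACA, and 3 matches to the GC box, GGGCGG, searched on both strands. FOXO3 is the factor best known to raise Bcl2l11 transcription.

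Bcl2l11 promoter: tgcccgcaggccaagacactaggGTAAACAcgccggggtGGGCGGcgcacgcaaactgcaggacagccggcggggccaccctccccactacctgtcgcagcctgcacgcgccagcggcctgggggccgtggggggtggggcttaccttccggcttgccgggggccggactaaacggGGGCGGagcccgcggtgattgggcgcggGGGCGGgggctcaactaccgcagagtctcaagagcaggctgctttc

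In the RefSeq promoter table for GRCm38.p6, which matched 9 of the 10 members in 15 entries and lacks Bik, 3.17% of 32851 windows of this length held GTAAACA and 32.7% held GGGCGG. The E-box CACGTG, held by 6.02%, was not in the window. Another Bcl2l11 entry of that table, chr2:128127325-128127574, held 2 GC boxes and no match to GTAAACA or CACGTG. No window of the other 8 members matched GTAAACA or CACGTG. GC boxes numbered 7 in the Bcl2 window, 3 in that of Bid and 3 in 1 of the 2 windows of Bad. GC content was 72.0% in the Bcl2l11 window and 52.4% in the median window. These matches are letters only, and binding was not measured.

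A second set of sequences is shown because a microRNA host transcript, Mir17hg (chr14:115042879-115046727), was among the genes listed as regulators of Bcl2l11. Its cluster encodes 6 microRNA hairpins, several of which are known to repress Bcl2l11 messenger RNA. In the mature sequences from RefSeq, capitals mark the seed, bases 2 to 8. The microRNAs miR-17 and miR-20a share a seed, as do miR-19a and miR-19b.

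mmu-miR-17-5p: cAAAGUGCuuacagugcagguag
mmu-miR-20a-5p: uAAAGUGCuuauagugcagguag
mmu-miR-18a-5p: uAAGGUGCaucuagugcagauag
mmu-miR-19a-3p: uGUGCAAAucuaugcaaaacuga
mmu-miR-19b-3p: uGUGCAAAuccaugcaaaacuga
mmu-miR-92a-3p: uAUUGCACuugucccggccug

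The longest annotated 3′ UTR of Bcl2l11, 4221 bases in its last exon (chr2:128158327-128162547), held 2 matches to the miR-17 and miR-20a seed, 2 to that of miR-92a and 1 to that of miR-19a and miR-19b. No match to the miR-18a seed was in it. Each is given in 22 bases of GRCm38, forward strand, with the match in capitals.

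chr2:128159764-128159785, miR-17 and miR-20a: agcctggtggaggaGCACTTTc
chr2:128160438-128160459, miR-17 and miR-20a: tctccccgactggaGCACTTTa
chr2:128161160-128161181, miR-92a: agccaaatgtctctGTGCAATt
chr2:128162393-128162414, miR-19a and miR-19b: ggcttcctttacgtTTTGCACt
chr2:128162435-128162456, miR-92a: ttgccactgtacctGTGCAATa

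Such matches are common in long 3′ UTRs. Among 1237 other 3′ UTRs at least as long, cut to the same length, 32.5% held GCACTTT, 30.6% held TTTGCAC, 18.3% held GTGCAAT and 21.1% held GCACCTT. Mature microRNAs were not measured.

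Bcl2l11 was low in every Myc_Utx line and high in every Myc_p53 line. Its raw counts were 46, 58 and 33 in Myc_Utx 2A, 2B and 2D and 362, 381 and 432 in Myc_p53 1, 2 and 3. In TMM-scaled CPM these were 9.17, 10.9 and 7.35 against 57.2, 70.6 and 61.6. The groups stood far apart, with the lowest Myc_p53 line 5.27 times the highest Myc_Utx line, whereas lines of 1 group differed by at most 1.48 times in Myc_Utx and 1.23 times in Myc_p53. The group means were 9.13 ± 1.76 and 63.1 ± 6.84 CPM (SD, n = 3 each), which put Bcl2l11 6.92-fold lower in Myc_Utx lines (log2 fold change -2.78, SE 0.20). This value chose the gene, and 2.95% of all genes tested had a log2 fold change at or below it.

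**Figure D1:**
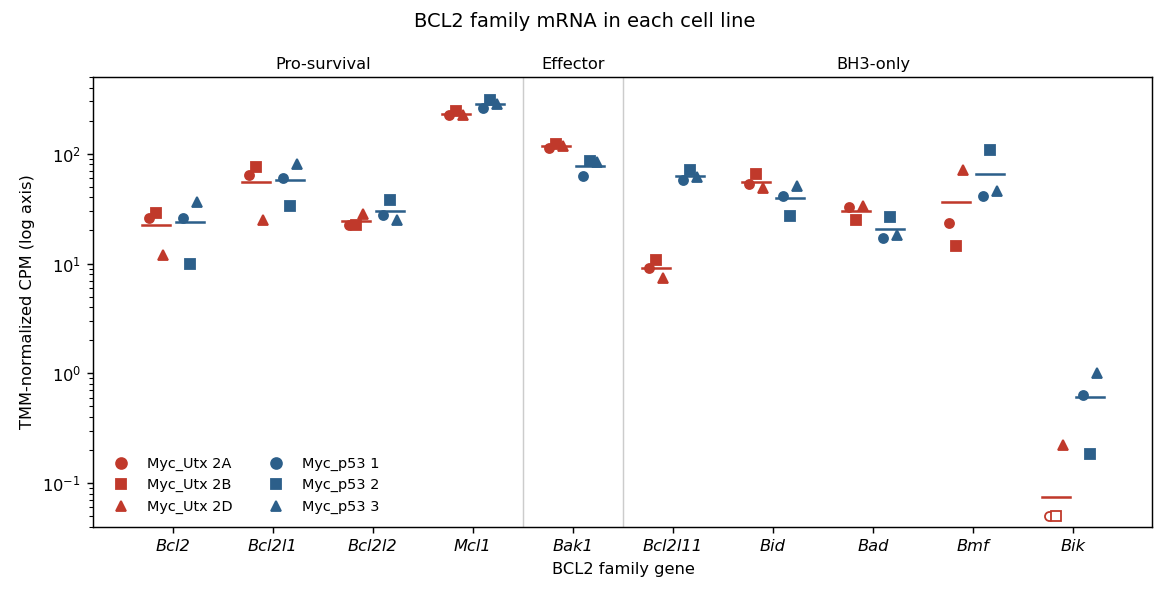
TMM-scaled CPM of the 10 members in the 6 lines, on a log10 axis, with 1 point per line and a bar at each group mean; open points mark lines with a count of 0. Bcl2l11 sits at 7.35 to 10.9 CPM in Myc_Utx lines and at 57.2 to 70.6 CPM in Myc_p53 lines, while 7 of the other 9 members overlap between the groups.

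No other member came near that gap. Of the other 9, 8 were tested, and at an adjusted p under 0.05 there was 1 higher, Bak1, and 0 lower in Myc_Utx lines by edgeR, where 6.99% of all genes were called higher and 7.69% lower. At an unadjusted p under 0.05 there were 2, Bak1 and Mcl1, and DESeq2 also called 1, Bak1 (adjusted p = 0.0128), where it called 9.37% of all genes higher and 11.5% lower. Lines of the groups did not overlap for 1 member that was higher and 1 that was lower, against 21.1% and 20.9% of all genes. With 8 tested members, 1 without overlap in either direction and a single call are too few to set against these shares of all genes. The median log2 fold change of the 8 was -0.10, and that of all genes tested was -0.01.

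The pro-survival members come first. Mcl1 (chr3:95658788-95663176), whose short-lived protein restrains BAK and Bim, was at 224.4, 246.0 and 223.4 CPM in Myc_Utx lines and at 259.8, 311.8 and 283.7 CPM in Myc_p53 lines. Every Myc_Utx line was below every Myc_p53 line, by a narrow margin. The log2 fold change of Mcl1 was -0.30 (95% interval -0.57 to -0.04, unadjusted p = 0.0315 and adjusted p = 0.108 by edgeR), which did not pass the test.

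Bcl2 (chr1:106538178-106714274), the founding member, and Bcl2l1 (chr2:152780668-152831728), which encodes BCL-XL, varied more within the groups than between them. Bcl2 was at 25.7, 29.0 and 12.02 CPM in Myc_Utx lines and at 25.8, 10.01 and 36.6 CPM in Myc_p53 lines. Bcl2l1 was at 64.2, 75.1 and 24.9 CPM in Myc_Utx lines and at 59.6, 33.5 and 81.3 CPM in Myc_p53 lines. Both genes were lowest in Myc_Utx 2D within the first group and in Myc_p53 2 within the second. Their log2 fold changes were -0.12 (95% interval -1.38 to 1.14, adjusted p = 0.891 by edgeR) for Bcl2 and -0.09 (95% interval -1.23 to 1.05, adjusted p = 0.911) for Bcl2l1, so a change of more than 2-fold either way remains inside the interval of each. Their signs turned when single lines were left out.

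Bcl2l2 (chr14:54883377-54888234), which encodes the pro-survival protein BCL-W, was steady at 22.5, 22.7 and 28.1 CPM in Myc_Utx lines and at 28.0, 37.6 and 25.0 CPM in Myc_p53 lines. The groups overlapped through Myc_Utx 2D, and the log2 fold change of Bcl2l2 was -0.31 (95% interval -0.82 to 0.21, adjusted p = 0.348 by edgeR).

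Bak1 (chr17:27019810-27029009) encodes BAK, an effector that forms pores in the outer mitochondrial membrane. It was at 112.1, 122.6 and 118.2 CPM in Myc_Utx lines and at 62.4, 86.2 and 84.3 CPM in Myc_p53 lines. All Myc_Utx lines were above all Myc_p53 lines, with means of 117.7 ± 5.31 and 77.6 ± 13.2 CPM (SD, n = 3 each). Bak1 was thus 1.52-fold higher (log2 fold change 0.60, SE 0.15, adjusted p = 0.0482 by edgeR), just inside the threshold. Without a filter, with at least 10 counts in every line, or with other scalings the adjusted p was 0.0516 to 0.0966, and of the fits without 1 line only that without Myc_p53 2 kept the call (adjusted p = 0.0433 to 0.135).

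The remaining members are BH3-only genes. Bid (chr6:120891930-120916853), whose protein is cut by caspase-8 and links death receptors to mitochondria, was at 53.4, 64.8 and 49.2 CPM in Myc_Utx lines and at 41.2, 27.2 and 51.0 CPM in Myc_p53 lines. Bad (chr19:6941861-6951898), whose protein is switched off by phosphorylation downstream of growth factors, was at 32.7, 24.7 and 33.6 CPM in Myc_Utx lines and at 17.2, 26.7 and 18.1 CPM in Myc_p53 lines. The groups overlapped through Myc_Utx 2D and Myc_p53 3 for Bid and through Myc_Utx 2B and Myc_p53 2 for Bad. The log2 fold changes were 0.48 (95% interval -0.12 to 1.09, adjusted p = 0.221 by edgeR) for Bid and 0.55 (95% interval -0.02 to 1.13, adjusted p = 0.155) for Bad.

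Bmf (chr2:118528757-118549687), which like Bim is held at the cytoskeleton by dynein light chains, varied widely within both groups. It was at 23.5, 14.4 and 70.6 CPM in Myc_Utx lines and at 40.9, 108.4 and 45.6 CPM in Myc_p53 lines. The high line of each group was Myc_Utx 2D and Myc_p53 2, the same pair in which Bcl2 and Bcl2l1 were lowest. The log2 fold change of Bmf was -0.85 (95% interval -2.44 to 0.74, adjusted p = 0.401 by edgeR). Bik (chr15:83526862-83544635) had raw counts of 0, 0 and 1 in Myc_Utx lines and 4, 1 and 7 in Myc_p53 lines, too few to test or to give a fold.

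**Figure D2:**
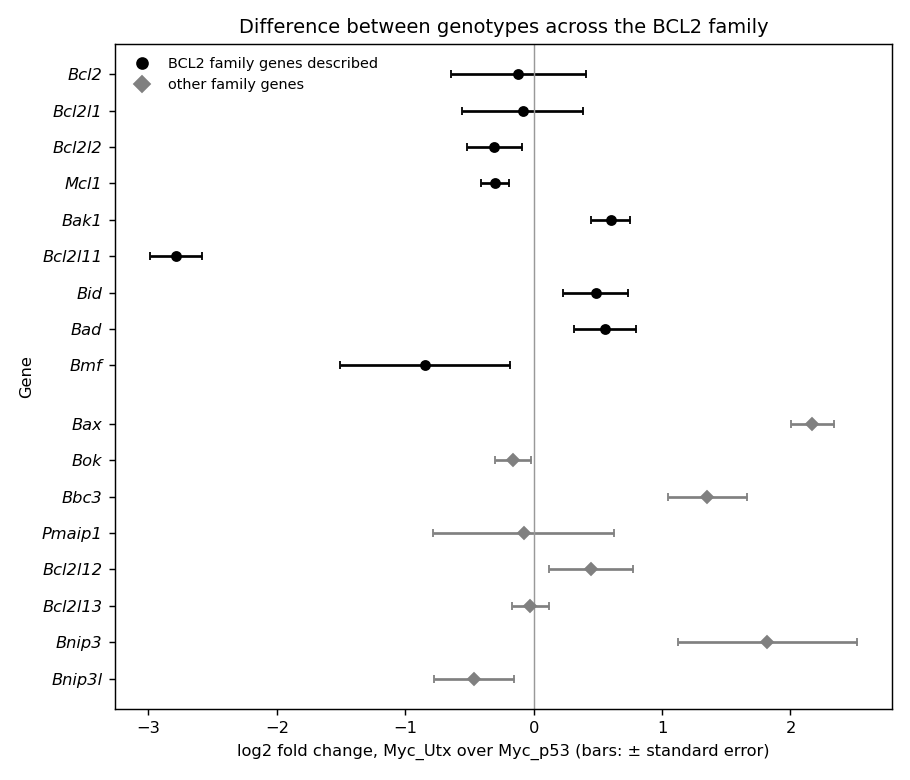
Log2 fold change of Myc_Utx over Myc_p53 lines (x axis) for the 9 tested members (black) and for other tested family genes (grey), with bars of 1 standard error on each side; Hrk, at no more than 3 counts in Myc_Utx lines, is left out. Bcl2l11 lies at -2.78, Bak1 at 0.60 and Bax at 2.17.

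Counts grow with transcript length, so members were compared with each other only as TPM, in which each count is divided by the gene length in the table and then scaled to the same total in every line. In TPM, Mcl1 was the highest member in both groups, at 215.6 ± 17.6 in Myc_Utx and 303.4 ± 26.8 in Myc_p53 lines (SD, n = 3 each), and Bak1 was next, at 155.6 ± 8.90 and 117.4 ± 20.9 TPM. These 2 stood apart from the rest of the 10 members in both groups. Bax, the other effector, is not among the 10, and its TPM was not computed. Bcl2l11 was at 3.71, 4.40 and 2.79 TPM in Myc_Utx lines and at 25.7, 31.4 and 28.7 TPM in Myc_p53 lines. It held rank 9 of 10 in the first group, above Bik alone, and rank 7 in the second.

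In Myc_Utx lines the order after Bak1 was Bid (50.2 ± 8.64 TPM), Bad (48.0 ± 6.94 TPM), Bcl2l1 (38.5 ± 19.3 TPM), Bmf (21.5 ± 17.1 TPM), Bcl2l2 (17.4 ± 1.57 TPM) and Bcl2 (7.82 ± 3.35 TPM). Neighbours from Bid to Bcl2l2 in that order differed by less than the larger of their SDs. In Myc_p53 lines Bcl2l1 (46.4 ± 20.1 TPM), Bmf (44.8 ± 25.2 TPM), Bid (41.0 ± 13.2 TPM) and Bad (37.4 ± 8.88 TPM) followed Bak1 and likewise differed from the next by less than the larger SD. Bcl2l11 (28.6 ± 2.89 TPM) came next, ahead of Bcl2l2 (24.5 ± 4.91 TPM) and Bcl2 (9.67 ± 5.55 TPM).

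Within the BH3-only members the make-up of the transcripts differed. Bcl2l11 made up 3.09%, 3.90% and 2.02% of the summed TPM of Bcl2l11, Bid, Bad, Bik and Bmf in Myc_Utx lines and 19.9%, 17.4% and 18.8% in Myc_p53 lines. The BH3-only sum was 120.0, 112.8 and 137.9 TPM in Myc_Utx lines and 128.9, 180.8 and 152.7 TPM in Myc_p53 lines, and the groups overlapped, with Myc_Utx 2D above Myc_p53 1. Since Bcl2l11 entered each of these figures, they carry its drop and are no separate evidence of it.

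In TPM the pro-survival sum of Bcl2, Bcl2l1, Bcl2l2 and Mcl1 was also lower, at 284.1, 314.5 and 239.1 TPM in Myc_Utx lines and 353.2, 386.1 and 412.9 TPM in Myc_p53 lines. Mcl1 made up most of it in every line, 74.5% to 83.4% in the first group and 75.2% to 84.4% in the second. Unlike the CPM given here, TPM was not scaled by TMM, and the gap of Mcl1 was narrower in CPM. Its means in Myc_Utx and Myc_p53 lines were 231.3 and 285.1 in CPM and 215.6 and 303.4 in TPM. No pro-survival member passed the test, and the sum was not tested. Per 100 TPM of pro-survival transcripts, the lines held 42.3, 35.9 and 57.7 TPM of the 5 BH3-only members in Myc_Utx and 36.5, 46.8 and 37.0 TPM in Myc_p53, so this ratio overlapped. It leaves out the BH3-only genes Bbc3, higher in every Myc_Utx line, Hrk, lower in every one, and Pmaip1, which overlapped. A ratio with these genes added was not computed, so this one does not stand for all BH3-only transcripts. Per the same 100 TPM, Bcl2l11 was at 1.29 ± 0.117 and 7.45 ± 0.615 TPM, and Bak1 at 56.2 ± 5.60 and 30.4 ± 3.53 TPM (SD, n = 3 each). These levels of messenger RNA say nothing of protein, and Bim isoforms were not separated.

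**Figure D3:**
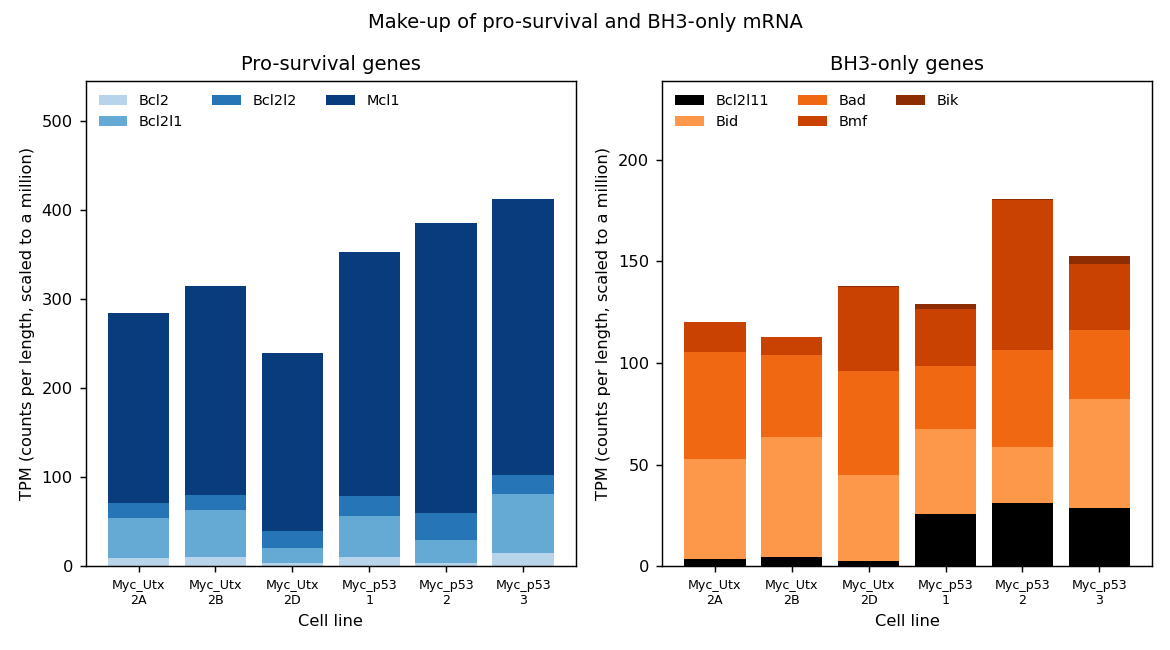
Summed TPM of the members in each of the 6 lines, split by gene, for the pro-survival and the BH3-only members. Mcl1 fills 74.5% to 84.4% of the pro-survival sum, and Bcl2l11 fills 2.02% to 3.90% of the BH3-only sum in Myc_Utx lines and 17.4% to 19.9% in Myc_p53 lines.

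Among the other 16 listed family genes, 9 were tested, with 2 called higher and 1 lower in Myc_Utx lines (6.99% and 7.69% of all genes) and a median log2 fold change of -0.03. Bax, the partner effector of BAK and a known p53 target, was at 233, 246 and 245 CPM in Myc_Utx lines and at 62.9, 42.3 and 55.6 CPM in Myc_p53 lines (log2 fold change 2.17, SE 0.17, adjusted p = 0.00644 by edgeR). Bbc3, the p53 target that encodes PUMA, was at 67.6, 71.5 and 39.4 CPM against 31.0, 20.9 and 18.1 CPM (log2 fold change 1.35, SE 0.31, adjusted p = 0.0374 by edgeR). Both genes were higher in every Myc_Utx line than in any Myc_p53 line. Leaving out 1 line ended the call of Bax only without Myc_Utx 2A (adjusted p = 0.0518), and that of Bbc3 in all such fits (adjusted p = 0.0668 to 0.11) but the one without Myc_p53 1 (adjusted p = 0.044).

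Pmaip1, which encodes the p53 target NOXA, a partner of MCL1, did not follow them. It was at 11.2, 38.8 and 20.3 CPM in Myc_Utx lines and at 28.1, 6.30 and 39.5 CPM in Myc_p53 lines (log2 fold change -0.08, SE 0.70, adjusted p = 0.948 by edgeR). Hrk, a BH3-only gene best known from neurons, had raw counts of 1, 3 and 0 in Myc_Utx lines and 330, 50 and 137 in Myc_p53 lines and was called lower (adjusted p = 0.0185 by edgeR). Like Bcl2l11 it was lower in every Myc_Utx line, and since those lines were at or under 3 counts its fitted fold is not given. The call of Hrk held without Myc_p53 1 or 2 and was lost without any of the other 4 lines (adjusted p = 0.0552 to 0.0721).

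Genes known to act on Bcl2l11 transcripts mostly did not pass the test. Of 8 listed, 7 were tested, with 0 called higher and 1 lower by edgeR (6.99% and 7.69% of all genes) and a median log2 fold change of -0.04. The 1 was Mir17hg, the host transcript shown above with its microRNAs, at 15.8, 14.04 and 20.7 CPM in Myc_Utx lines and 44.7, 40.4 and 36.1 CPM in Myc_p53 lines (log2 fold change -1.26, SE 0.20, adjusted p = 0.0187 by edgeR). Mir17hg was thus low in the same lines in which Bcl2l11 was low. Its call held without Myc_p53 1 or 2 and was lost without any of the other 4 lines (adjusted p = 0.0555 to 0.0732).

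ERK signalling is known to mark Bim for degradation, and 12 of 13 listed ERK output genes were tested, with 0 called in either direction by edgeR (6.99% higher and 7.69% lower of all genes) and a median log2 fold change of -0.13. The smallest p among them was that of Fosl1, an AP-1 subunit, with a log2 fold change of 0.87 (adjusted p = 0.156). Many of these genes were lowest in the same lines as Bcl2 and Bcl2l1, a pattern looked for after the values were seen. All 12 were lowest in Myc_Utx 2D of its group, 8 of them were also lowest in Myc_p53 2 of its group and the other 4 in Myc_p53 1. Of all 11510 genes tested, 3818 were lowest in Myc_Utx 2D, 4295 in Myc_p53 2 and 12.8% in both. Those 2 lines had the smallest total counts of their groups, and the part of depth in this was not tested.

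Of 17 listed partners and turnover factors of the family, all were tested, with 1 called higher and 0 lower (6.99% and 7.69% of all genes) and a median log2 fold change of -0.08. The 1 was Vdac3, a channel of the outer mitochondrial membrane (log2 fold change 0.54, adjusted p = 0.0338 by edgeR). Downstream of the family, 12 caspase and apoptosome genes were tested, with 2 higher, 0 lower (6.99% and 7.69% of all genes) and a median log2 fold change of 0.06. Cycs, which encodes the cytochrome c that the effectors release, was at 87.2, 102 and 134 CPM in Myc_Utx lines and 44.1, 28.0 and 47.3 CPM in Myc_p53 lines (log2 fold change 1.43, adjusted p = 0.0226 by edgeR). For Htra2, a mitochondrial protease released with it, the log2 fold change was 1.17 (adjusted p = 0.034). With 1 line left out, the call of Vdac3 held only without Myc_p53 2 (adjusted p = 0.0479 to 0.114), that of Cycs only without Myc_p53 1 or 2 (adjusted p = 0.0239 to 0.0799) and that of Htra2 only without Myc_p53 1 (adjusted p = 0.032 to 0.111). The log2 fold changes in those fits were 0.50 to 0.61 for Vdac3, 1.24 to 1.59 for Cycs and 1.02 to 1.45 for Htra2.

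Of 6 listed inhibitors of apoptosis, 5 were tested, with 1 higher and 2 lower (6.99% and 7.69% of all genes) and a median log2 fold change of -0.50. The log2 fold change was -1.68 for Birc3, the cIAP2 gene (adjusted p = 0.0293 by edgeR), -0.68 for Birc6 (adjusted p = 0.0239) and 0.40 for Birc5, the survivin gene (adjusted p = 0.0463). Of 9 listed death receptor genes, 7 were tested, with 2 higher, 0 lower (6.99% and 7.69% of all genes) and a median log2 fold change of 0.92. These were Tnfrsf10b, the mouse TRAIL receptor and a p53 target, with a log2 fold change of 1.56 (adjusted p = 0.013 by edgeR), and Tnfrsf1a, a TNF receptor, with one of 0.92 (adjusted p = 0.0383). With offsets for transcript length the calls of Bbc3, Birc5, Birc6 and Tnfrsf1a were lost (adjusted p = 0.0576 to 0.222), and the log2 fold change of Birc6 was then -0.27. With 1 line left out, the calls of Birc3 and Tnfrsf1a held only without Myc_p53 2, that of Birc6 without Myc_p53 1 or 2, that of Birc5 in no fit, and that of Tnfrsf10b in all fits but those without Myc_Utx 2A or 2B (adjusted p = 0.0614 and 0.0543).

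No annotated gene overlaps Bcl2l11. Acoxl, the nearest gene before it at 2165 bases, had raw counts of 1, 0 and 0 in Myc_Utx lines and 2, 1 and 4 in Myc_p53 lines. Gm14005, the nearest after it at 15772 bases, had raw counts of 12, 21 and 3 against 9, 6 and 59 (log2 fold change -0.64, SE 0.94, adjusted p = 0.657 by edgeR). The nearest tested gene before Bcl2l11 was Bub1, a mitotic checkpoint kinase at 294173 bases, with a log2 fold change of -0.15 (95% interval -0.49 to 0.19, adjusted p = 0.481). The levels of these neighbours overlapped between the groups.

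The 5 genes whose levels ran closest to Bcl2l11 over the 6 lines were Dync1li2, Ttc14, AC174678.1, Acrbp and Smyd4, with Pearson's r of log2 CPM from 0.996 to 0.997. Because the 6 points fall into 2 separate groups, such a value mainly carries the gap between the groups, and it is a description of 5 genes picked from 11510. Their log2 fold changes ran from -0.70 for Smyd4 to -2.18 for Acrbp, all smaller in size than that of Bcl2l11.

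Markers of other cell types moved with the groups in part, and their part in the level of Bcl2l11 was not tested. The 16 macrophage markers summed to 37.9 to 56.0 CPM in Myc_Utx lines and 63.8 to 142.3 CPM in Myc_p53 lines. Cd14 alone was at 53.2, 34.3 and 32.3 CPM in Myc_Utx lines and 19.3, 18.9 and 21.7 CPM in Myc_p53 lines, and the other 15, a split made after the values were seen, summed to 2.79 to 6.37 CPM against 44.9 to 120.6 CPM. Of the 16, 11 were lower in Myc_Utx lines without overlap and 1, Cd14, was higher (20.9% and 21.1% of all genes tested). In every Myc_Utx line 7 of them, including Adgre1 and Ptprc, were at 0, and Ptprc was at no more than 3 counts in every line. Within the Myc_p53 lines the sum without Cd14 was lowest, 44.9 CPM, in line 2, where Bcl2l11 was highest. All 7 lymphocyte markers were at no more than 3 counts in every line, and the 7 endothelial markers summed to at most 1.42 CPM.

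The 9 markers of hepatocytes, the cell type that hydrodynamic injection reaches in the liver, summed to 3.12 to 9.36 CPM in Myc_Utx lines and 23.4 to 74.0 CPM in Myc_p53 lines, and Alb, the defining one, was at 0.891 to 4.87 CPM over the 6 lines. Of these, 4 were lower and 1 was higher in Myc_Utx lines without overlap (20.9% and 21.1% of all genes tested), though some of these markers were too low to test. The 7 epithelial markers summed to 61.9 to 165 CPM in Myc_Utx lines and to 1583, 121 and 1246 CPM in Myc_p53 1, 2 and 3. The 9 fibroblast and stellate cell markers summed to 1953 to 2693 CPM in Myc_Utx lines and to 42.0, 3170 and 722 CPM in Myc_p53 lines. Col3a1 alone was at 1731, 2301 and 2558 CPM in Myc_Utx lines and at 10.3, 2721 and 73.9 CPM in Myc_p53 lines. Col1a1 was at 35.3, 34.5 and 4.01 CPM against 3.32, 144 and 236 CPM. Without overlap, 1 of these 9 and 3 of the 7 epithelial markers were lower in Myc_Utx lines, and 0 of either list were higher. Over all genes tested these shares were 20.9% and 21.1%, and 1 of 9 is not above the first. Of the Myc_p53 lines, line 2 was nearest to the Myc_Utx lines in the epithelial and the fibroblast and stellate sums, though not in Col1a1, Col1a2 or Pdgfra. Col3a1 made up most of the latter sum in Myc_p53 2 and in the Myc_Utx lines. The Bcl2l11 level of Myc_p53 2, 70.6 CPM, was the highest of all lines, and a link between these sums and Bcl2l11 was not tested.

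**Figure D4:**
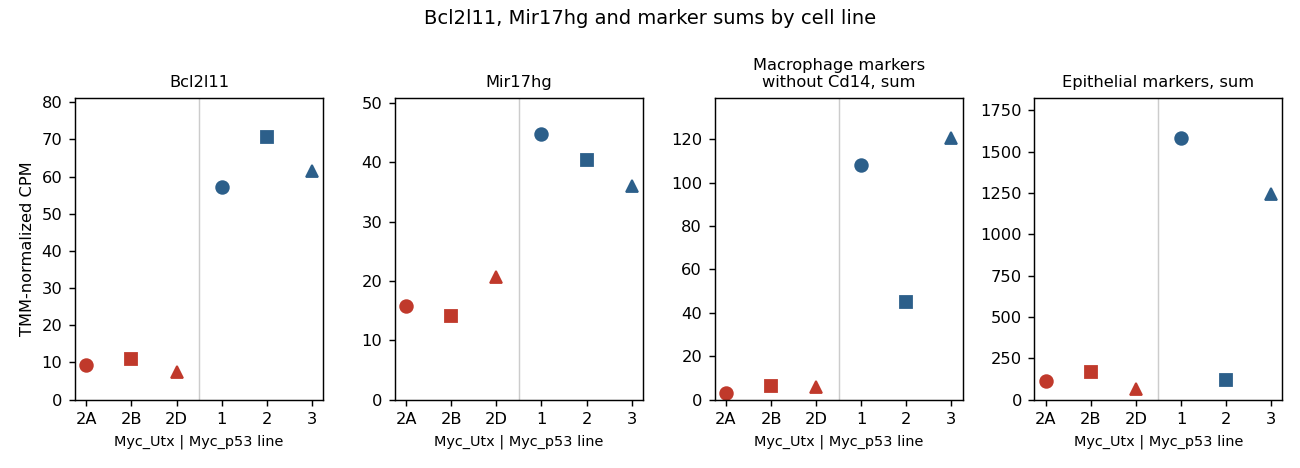
TMM-scaled CPM of Bcl2l11, of Mir17hg and of the summed macrophage markers without Cd14 and epithelial markers, in 1 panel each with its own axis from 0 and 1 point per line (red, Myc_Utx 2A, 2B and 2D; blue, Myc_p53 1, 2 and 3). Bcl2l11, Mir17hg and the macrophage sum separate the groups, while the epithelial sum of Myc_p53 2, 121 CPM, lies within the range of the Myc_Utx lines.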

How the data were processed

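Raw counts of reads assigned to each gene, not normalized, were deposited by the authors for 6 libraries beside a gene length in bases. The submitters' processing notes name Trimmomatic 0.36, STAR 2.5.3a, featureCounts 1.6.3, DESeq2 1.20.0 and GRCm38, whereas the study's methods name another counter, a human build and Mll3-edited in place of Utx-edited lines. Table coordinates matched GENCODE M21 for 96.0% of genes.

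Lines were grouped by their labels. With edgeR 4.0.16 under R 4.3.3, low genes were filtered by filterByExpr (minimum count 10), scaled by TMM and fitted with quasi-likelihood models, with significance at an adjusted p under 0.05. The script was tested on simulated data. The members and lists were chosen with earlier results of these data known. Named genes are the members, Bax, Bbc3, Pmaip1, Kdm6a, called genes of each list (at most 4, or the smallest p), neighbours of Bcl2l11 and the 5 genes most correlated with it over log2(CPM + 0.1). Hepatic and other marker lists served as checks.

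Alternatives were no filter, at least 10 counts in every line, DESeq2 size factors, total counts, DESeq2 1.42.0, length offsets (MASS 7.3.60.0.1, splines with 5 degrees of freedom) and leaving out each line. Depth was 4656103 to 6937497 counts. No protein sequence was used here.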

Additional observations from a re-analysis of the deposited data

How the results depend on the processing

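No paired analysis was made, because the lines came from tumours of different mice and the groups hold no matched lines. The count of members called higher in Myc_Utx lines, 1 by edgeR, was 0 with no filter, 0 with at least 10 counts in every line, 0 with DESeq2 size factors, 0 with total counts only and 0 with length offsets, since the adjusted p of Bak1 crossed the threshold, and it was 0 to 1 when 1 line was left out. The count called lower was 0 under each of these. Among the 69 listed pathway genes tested, 8 were called higher and 4 lower (6.99% and 7.69% of all genes), and leaving out 1 line gave 0 to 5 and 0 to 6. The log2 fold change of Bcl2 turned to 0.10 with length offsets. Without 1 line it ran from -0.48 to 0.31 for Bcl2 (0.20 without Myc_Utx 2D, 0.31 without Myc_p53 3), from -0.37 to 0.28 for Bcl2l1 (0.28 without Myc_Utx 2D, 0.23 without Myc_p53 3) and from -0.64 to 0.43 for Pmaip1 (0.28 without Myc_Utx 2A, 0.04 without Myc_Utx 2D, 0.02 without Myc_p53 1, 0.43 without Myc_p53 3). The cause was not tested. That of Bcl2l11 was -2.91 to -2.63 without 1 line and -2.60 with length offsets. Over all genes, leaving out 1 line gave 3 to 836 higher and 1 to 1118 lower, the fewest without Myc_Utx 2A, and DESeq2 called 1277 higher and 1572 lower. Bax stayed called in 5 of the 6 fits without 1 line. Birc5 was called in 0 of these and was also lost with 4 of the other settings besides length offsets, and Vdac3 was lost with no filter (adjusted p = 0.0538). With 3 lines a group and 4656103 to 6937497 counts a line, low genes such as Bik could not be tested.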
